A study of Mus musculus with 12 samples.

Results

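The study used chromatin immunoprecipitation followed by sequencing, which recovers and places the DNA fragments held by 1 protein, to map ZFP57, KAP1 and the histone mark H3K9me3 in mouse embryonic stem cells. The groups used here were ZFP57 and KAP1 in A3 cells, which are wild type and of strain 129X1/SvJ, and ZFP57 and KAP1 in E14 cells, which are wild type and of strain 129P2/OlaHsd. Both lines were grown without feeder cells in serum and leukemia inhibitory factor, each line is 1 culture line, and each group was 1 library. The 8 remaining libraries, among them all inputs, all H3K9me3 libraries and all libraries of A3_Zfp57-/- cells, were not analysed here, so none of the sites below was compared with cells lacking ZFP57. Peak lists hold no expression values, and the cell identity was therefore not checked against marker genes.

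ZFP57 is a zinc finger protein that binds methylated DNA, and in embryonic stem cells it is known for keeping the methylation of imprinting control regions. Through its KRAB domain it recruits KAP1 (TRIM28), a scaffold for enzymes that methylate H3K9 and DNA. A ZFP57 site where KAP1 was not called is therefore one at which the separate KAP1 lists held no peak of the best known partner of the protein.

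The sites described here were called for ZFP57 in A3 alone and lie on chromosomes 1, 2, 8 and 14. A site was the union of peaks of the 4 lists that overlapped by at least 1 bp, and a site was kept when it held an A3 ZFP57 peak and no peak of A3 KAP1, E14 ZFP57 or E14 KAP1. The members were thus chosen by the presence and absence of called peaks in these 4 lists. This gave 638 sites of 12833 in all lists together, namely 200 on chromosome 1, 154 on chromosome 2, 130 on chromosome 8 and 154 on chromosome 14. On all chromosomes 93.8% of the sites with an A3 ZFP57 peak met no peak of another list, against which the 97.3% on these 4 chromosomes (638 of 656) and the 92.3% on the other autosomes (715 of 775) are given without a test, because this overlap chose the sites. The chromosomes themselves were singled out by their larger share of the A3 ZFP57 list than of the E14 ZFP57 list, so the densities below are a description too. Positions are those of mm9, counted from 1. The deposited peaks lie on a grid of 150 bp and the narrowest is 300 bp wide, so widths and distances are not known more finely than that. No sequence, gene or exon is given for the sites, because neither sequence nor gene models of mm9 were used here.

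At the edge of the rule, the retained site nearest to a peak of another list lay on chromosome 8 at 100408501 to 100408800, 150 bp from an A3 KAP1 peak. The 18 A3 ZFP57 sites of these chromosomes that were not retained overlapped another list by at least 300 bp, and 1 of the 4 with that smallest overlap lay on chromosome 14 at 91335301 to 91335600. Of the 18, 9 met A3 KAP1 alone and 5 met all the other lists.

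The 4 chromosomes carried 45.8% of all 1393 A3-only sites (95% exact binomial interval 43.2 to 48.5%) on 24.1% of the mapped span. Span here runs from the first to the last peak of any list on a chromosome, since the files do not state chromosome lengths. Density was 1.28 A3-only sites per Mb on chromosome 14, 1.03 on chromosome 1, 1.01 on chromosome 8 and 0.867 on chromosome 2. The 15 other autosomes ranged from 0.225 sites per Mb on chromosome 6 to 0.571 on chromosome 3, so all 4 stood above that range. Together the 4 chromosomes held 1.03 sites per Mb against 0.3997 on the other autosomes, a ratio of 2.57 (2.31 to 2.87, from the exact binomial interval of the counts). Intervals here and below cover counting error of the peak lists only and say nothing of variation between cultures.

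The 3 other lists, which entered the rule by the absence of their peaks, did not show this excess; for E14 ZFP57 the choice of chromosomes was made against that list, so its value is a description only. The same ratio was 0.963 for A3 KAP1 peaks (0.920 to 1.01), 0.981 for E14 ZFP57 peaks (0.808 to 1.19) and 0.874 for E14 KAP1 peaks (0.764 to 0.997). None of the 4 chromosomes stood above the range of the other autosomes in any of these lists. E14-only ZFP57 sites, called in the other line by the mirror image of the rule, had a ratio of 1.15 (0.919 to 1.43).

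**Figure D1:**
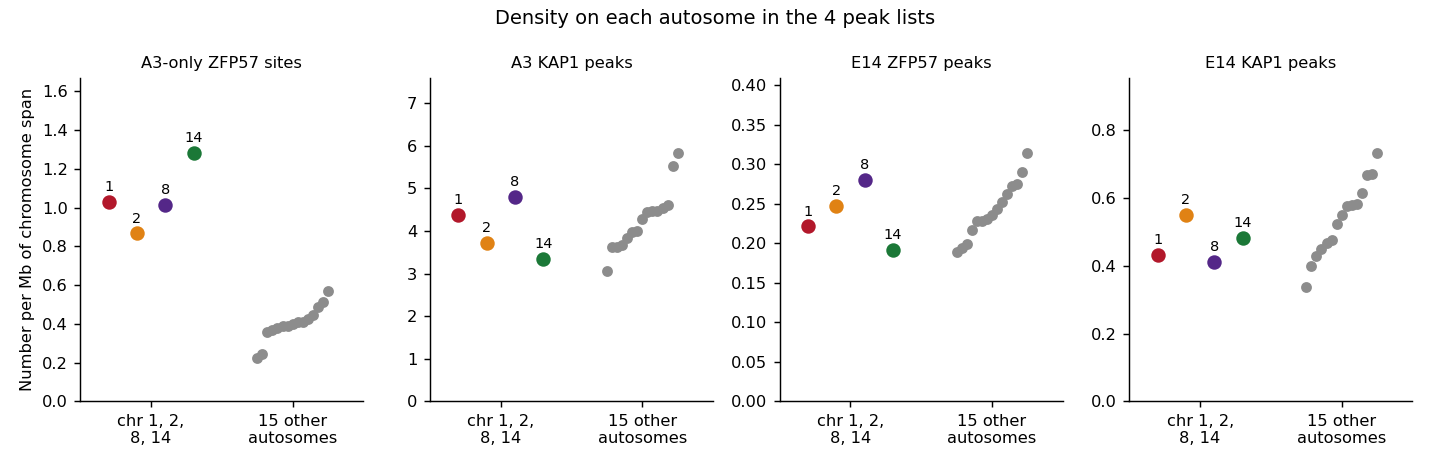
Number of sites or peaks per Mb of chromosome span (vertical axis, starting at 0), with 1 point per autosome and 1 panel per list. Chromosomes 1, 2, 8 and 14 (coloured, numbered) lie between 0.867 and 1.28 A3-only ZFP57 sites per Mb, above the highest of the 15 other autosomes (grey, in rising order) at 0.571, and within the grey range in the other panels.

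To describe where density changed along each chromosome, the sites were counted in bins of 1 Mb and split into segments of even density by a penalised Poisson model. A segment was called enriched when it held at least 5 sites at no less than 2 times the density of the other autosomes. Chromosomes 1, 2 and 8 each came out as 1 enriched segment from end to end, and chromosome 14 was divided into a distal enriched part and a proximal part. The 4 enriched stretches held 612 of the 638 sites (95.9%, 94.1 to 97.3%), and the other 26 were all on proximal chromosome 14. The same sites placed the stretches, on chromosomes chosen for their excess, so this share is a description only. The stretches cover most of the span and held 87.7% of the A3 KAP1, 89.7% of the E14 ZFP57 and 86.7% of the E14 KAP1 peaks of the 4 chromosomes. When enrichment was set at 3 times the other autosomes, the distal part of chromosome 14 alone met it.

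Chromosome 14 had the sharpest change. Its first A3-only site lay at 9771301 to 9771600, and its first 78.8 Mb held 26 sites. The last 41.4 Mb, which is 34.5% of the span, held 128 sites. That is 3.09 sites per Mb in the distal part and 0.3302 in the proximal part, a ratio of 9.36 (6.10 to 14.9) that is given without a test because the sites themselves placed the boundary. The distal density was 7.73 times that of the other autosomes, and the proximal density was 0.826 times it, inside the range of single autosomes given above.

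The boundary could be placed to within the distance between neighbouring sites. The enriched part opened with the site at 83122351 to 83122950, and the nearest site before it lay at 82562401 to 82562850, 559.5 kb away. That earlier site stood alone: the one before it, at 74066401 to 74067150, was 8.50 Mb further towards the start of the chromosome. Inside the boundary the next 5 sites followed at distances of 133, 108, 122, 357 and 199 kb. The 5 Mb from the first enriched site held 16 sites, and the 5 Mb before it held 1. With other bins or with peaks of at least 450 bp alone the stretch opened at 82562401, 1 site earlier, and it lay within 1 Mb of the main position in all 11 settings that placed it. Not all of these could have moved it. Other enrichment limits only label segments, and joining peaks within 300 bp left the same 128 sites in the stretch.

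The enriched part ran to the end of the mapped span. Its last site, at 124383001 to 124383300, lay 46.8 kb from the last peak of any list. Density varied within it. The 5 Mb bins from 85 to 95 Mb held 20 and 28 sites, the next 2 bins to 105 Mb held 9 and 7, the bins from 105 to 120 Mb held 18, 15 and 13, and the partial bin from 120 Mb to the end of the span held 12. The fullest 1 Mb bin of all 4 chromosomes was at 92 to 93 Mb, with 10 sites.

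The other lists showed no such increase from the whole proximal to the whole distal part. Of the E14 ZFP57 peaks 8 lay in the distal and 15 in the proximal part, which is 0.193 and 0.190 peaks per Mb (ratio 1.01, 0.372 to 2.55). E14 KAP1 had 19 distal and 39 proximal peaks, a density ratio of 0.926 (0.505 to 1.64). A3 KAP1 had fewer peaks per Mb in the distal part, 2.22 against 3.95 in the proximal part (ratio 0.562, 0.441 to 0.712). The A3 KAP1 interval thus lies below 1 where the A3-only ZFP57 sites were at their densest.

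**Figure D2:**
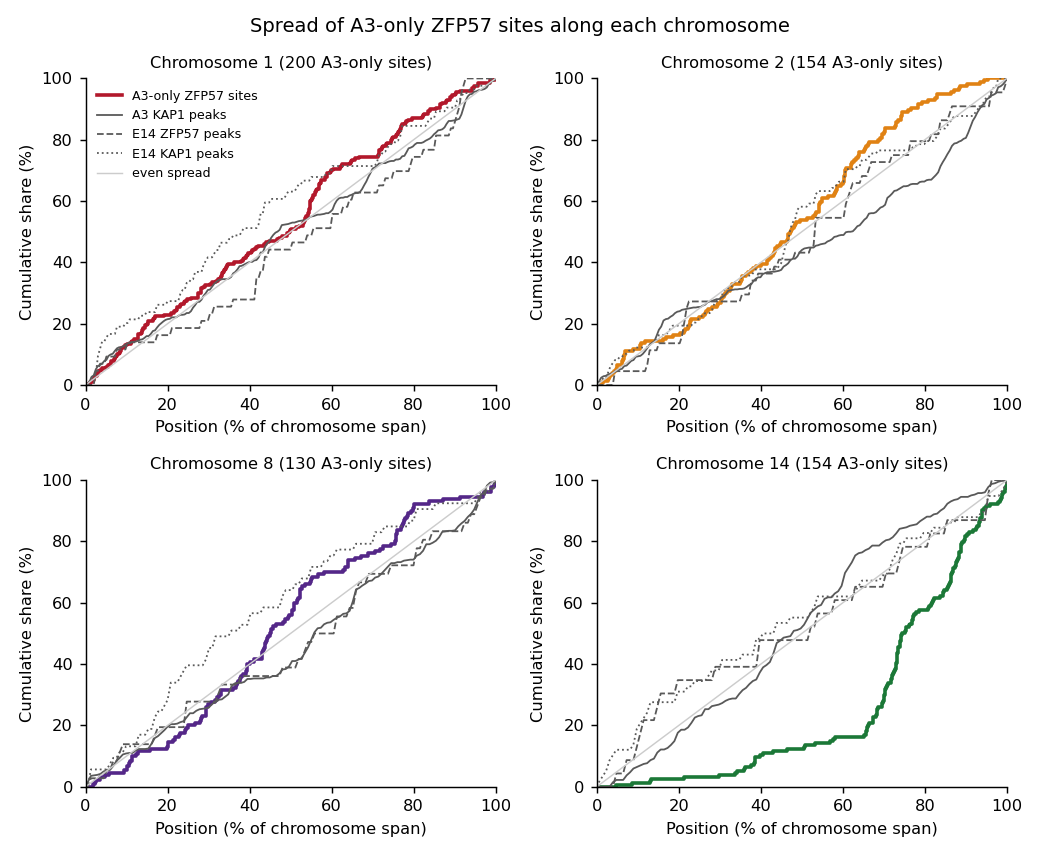
Cumulative share of A3-only ZFP57 sites (coloured steps) and of the peaks of the 3 other lists (grey; solid A3 KAP1, dashed E14 ZFP57, dotted E14 KAP1) against position as a percentage of each chromosome's span; the straight line is an even spread. On chromosome 14 the coloured steps stay low and climb in the last part, where 87.7% of the sites lie in the second 50% of the span, while the steps on chromosomes 1, 2 and 8 keep near the straight line.

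Chromosomes 1, 2 and 8 were populated along most of their length. The second 50% of the span held 49.5% of the sites on chromosome 1 (42.4 to 56.6%), 46.1% on chromosome 2 (38.1 to 54.3%) and 43.8% on chromosome 8 (35.2 to 52.8%), against 87.7% on chromosome 14 (81.4 to 92.4%). The largest departure of the cumulative curve from an even spread was 10.2 percentage points on chromosome 1, 14.5 on chromosome 2 and 13.2 on chromosome 8, and 48.9 on chromosome 14. At least 1 site was present in 39 of the 40 bins of 5 Mb on chromosome 1, in 33 of 37 on chromosome 2 and in 26 of 27 on chromosome 8.

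On chromosome 1 the sites ran from 3105601 to 197018550. The densest place was the bin from 105 to 110 Mb with 17 sites, followed by 13 in the next bin, against a median of 4 per bin. The fullest 1 Mb bin, from 109 to 110 Mb, held 6. It contained the longest run of neighbours within 100 kb on that chromosome, 5 sites between 109169701 and 109250700. The closest pair of the chromosome, at 109200601 to 109201050 and 109201351 to 109201800, belongs to this run, and its members were 300 bp apart. The widest empty interval, 9.07 Mb, followed the site at 132346951 to 132347550 and ended at 141414901 to 141415500. That interval covered the bin from 135 to 140 Mb, the only one of the chromosome without a site, where A3 KAP1 had 49 peaks.

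Chromosome 2 was populated from 4069051 to 173738700 and thinned out towards its distal end. The fullest bin, from 110 to 115 Mb, held 11 sites, 7 of them from 111 to 112 Mb. They included the closest pair of all 4 chromosomes, at 111752251 to 111752550 and 111752701 to 111753150, only 150 bp apart. The bins from 165 to 170 Mb and from 175 to 180 Mb held none, and the last site lay 8.01 Mb before the last peak of any list. The widest gap, 8.11 Mb, lay after the site at 24879451 to 24879750 and before the one at 32989501 to 32989800. The end of the enriched stretch depended on the settings here: it closed at 151590450 with bins of 2 Mb and at 136447050 with a lower penalty, where the stretch held 137 sites at 1.03 per Mb.

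On chromosome 8 the first site lay at 5751901 to 5752350 and the last, at 131704051 to 131704650, was also the last peak of any list. The fullest bin, from 100 to 105 Mb, held 13 sites, 6 of them from 100 to 101 Mb. With a lower penalty the chromosome was divided into 3 enriched stretches, from 39128551 to 73862100 with 61 sites at 1.74 per Mb, from 100318351 to 106193850 with 17 sites at 2.43 per Mb, and from 130158901 to 131704650 with 5 sites at 2.93 per Mb. Its widest gap, 7.02 Mb, came after the site at 120655951 to 120656550 and ended at 127678051 to 127678500. The closest pair, at 17763301 to 17763600 and 17764951 to 17765400, was 1350 bp apart.

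Counts of A3-only sites and of A3 KAP1 peaks in bins of 5 Mb were negatively related on each of the 4 chromosomes. Spearman's rho between the 2 counts was −0.43 on chromosome 1 (38 bins), −0.41 on chromosome 2 (35 bins), −0.44 on chromosome 8 (25 bins) and −0.39 on chromosome 14 (23 bins). Pearson's r had the same sign, from −0.32 to −0.47. On the 15 other autosomes rho was −0.12 over 345 bins, and within proximal chromosome 14 it was 0.06 over 15 bins. Part of the negative sign is built in, because the rule removed sites that met an A3 KAP1 peak, 15 on the 4 chromosomes. For all A3 ZFP57 peaks, with those sites included, rho was −0.39 on each of chromosomes 1, 2 and 8 and −0.37 on chromosome 14. The bins come from the same 2 libraries and are not independent, so these values are descriptions with no test. In the bins with more A3 KAP1 peaks than the chromosome's median, A3-only sites averaged 3.56 per bin on chromosome 1, against 6.70 in the remaining bins. The means were 3.47 against 5.22 on chromosome 2, 3.09 against 6.5 on chromosome 8 and 4.36 against 7.83 on chromosome 14. The counts of the E14 lists showed weaker relations, with rho from −0.20 to 0.06 for E14 ZFP57 and from −0.01 to 0.21 for E14 KAP1.

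**Figure D3:**
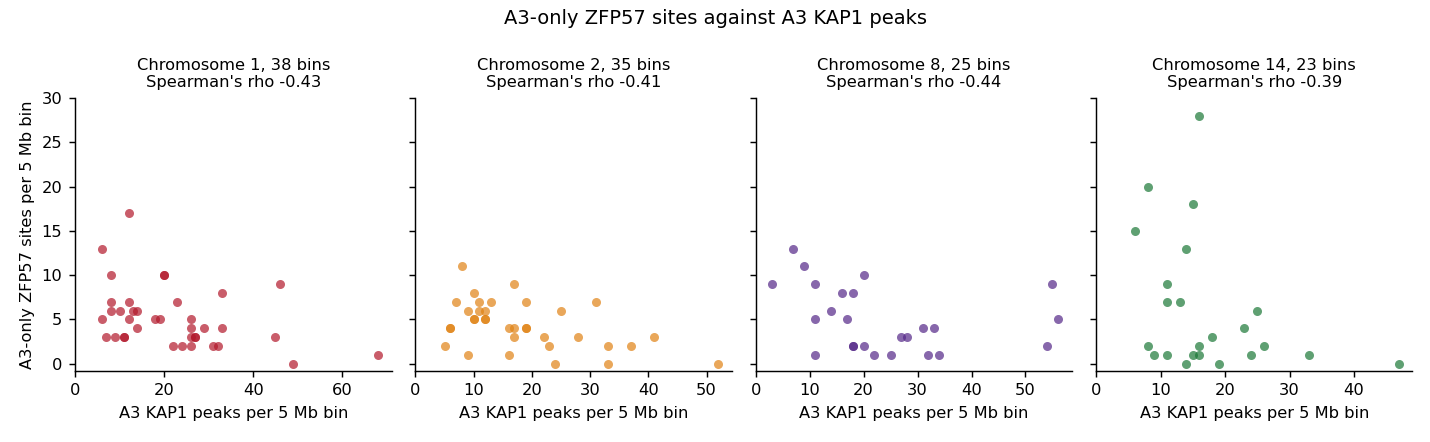
A3-only ZFP57 sites (vertical axis) against A3 KAP1 peaks (horizontal axis) in each full bin of 5 Mb, 1 panel per chromosome and 1 point per bin. On chromosomes 1 and 2 the bins with most A3 KAP1 peaks, 68 and 52, have 1 and 0 sites, whereas on chromosome 8 bins of 55 and 56 KAP1 peaks have 9 and 5 sites, and on chromosome 14 the bin with most sites, 28, has 16 KAP1 peaks against a median of 15.

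The sites differed in width between the chromosomes. In distal chromosome 14 the median width was 600 bp and 10.2% of the 128 sites had the minimum width of 300 bp (5.52 to 16.7%). Width was not even along this part: each 5 Mb bin from 85 to 120 Mb had a median of 600 or 750 bp, and the partial bin from 120 Mb had 300 bp. On proximal chromosome 14 the median was 450 bp and 42.3% of the 26 sites were at the minimum (23.4 to 63.1%). Sites on chromosomes 1 and 8 had a median of 450 bp, with 45.5% (38.5 to 52.7%) and 40.8% (32.2 to 49.7%) at the minimum. Chromosome 2 was narrower, with a median of 300 bp and 68.8% at the minimum (60.9 to 76.0%). On the other autosomes the median was 300 bp and 70.8% of 715 sites were at the minimum (67.3 to 74.1%), and single autosomes ranged from 50 to 94.9%. Chromosomes 14, 8 and 1 thus had the smallest minimum-width shares of the 19 autosomes, whereas 6 of the 15 other autosomes lay below chromosome 2.

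Sites of different widths made up the excess on different chromosomes. In distal chromosome 14, sites of the minimum width were at 0.314 per Mb, against 0.283 on the other autosomes (ratio 1.11, 0.587 to 1.91), while sites of at least 600 bp were at 2.08 per Mb against 0.0386 (ratio 53.8, 38.8 to 74.99). Both ratios pool the whole distal part, in which the sites from 120 Mb on were narrower. On chromosome 1 the ratio was 1.66 for the minimum width (1.31 to 2.08) and 4.81 for sites of at least 450 bp (3.78 to 6.09). On chromosome 8 the same ratios were 1.46 (1.08 to 1.94) and 5.13 (3.90 to 6.70). On chromosome 2 they were alike, 2.11 (1.69 to 2.61) and 2.31 (1.65 to 3.18), and sites of at least 600 bp, 5 in number, showed no excess (0.730, 0.230 to 1.79). Widths come from the list that chose the sites, so these ratios carry no test. When all A3 ZFP57 peaks under 450 bp were left out, the density ratio of the 4 chromosomes over the other autosomes was 5.02 in place of 2.57.

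**Figure D4:**
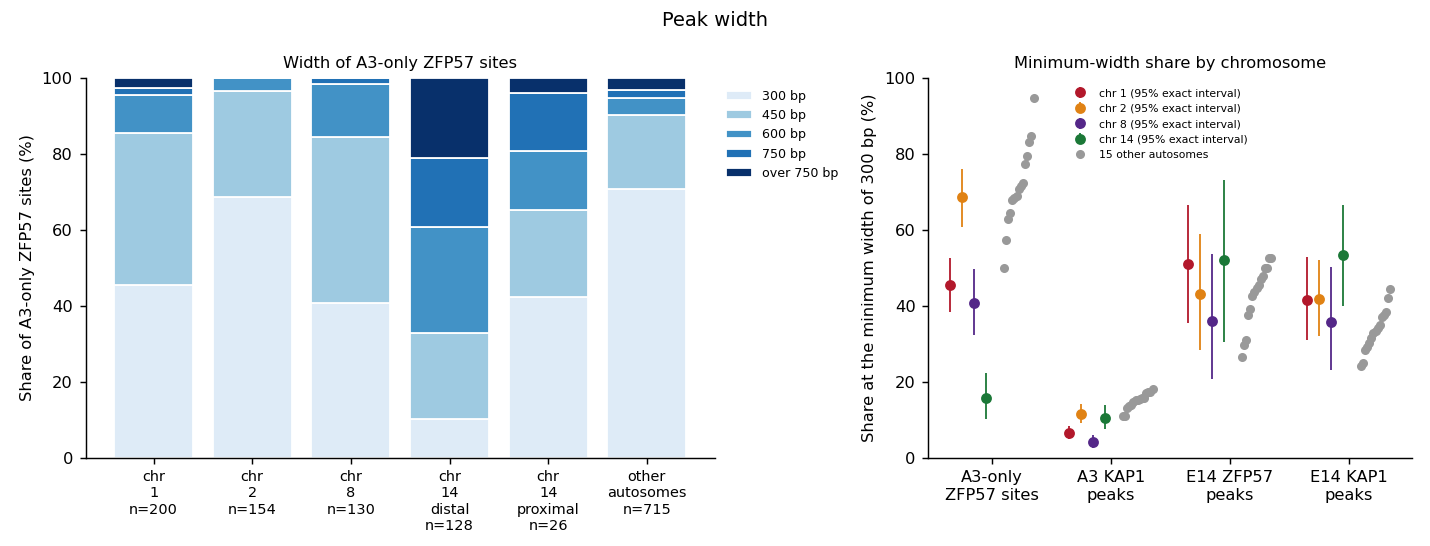
Left, share of A3-only ZFP57 sites in each width class (stacked to 100%) by chromosome, with the number of sites under each bar; right, share of sites or peaks at the minimum width of 300 bp in 4 sets, for chromosomes 1, 2, 8 and 14 (coloured, 95% exact intervals) and the 15 other autosomes (grey). Distal chromosome 14 has 10.2% of its sites at the minimum width against 70.8% on the other autosomes, and A3 KAP1 peaks on chromosomes 8 and 1 lie below all grey points at 4.05% and 6.46%.

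The widest site of the 4 chromosomes was the proximal chromosome 14 site at 45289501 to 45292350, with 2850 bp. No other exceeded 1350 bp, a width reached on chromosome 14 at 86564251 to 86565600 and 92209651 to 92211000 and on chromosome 1 at 175712251 to 175713600. The next on chromosome 1 were 4 sites of 900 bp, the first of them at 12857401 to 12858300 and 46380901 to 46381800. On chromosome 8 the widest were 750 bp, at 72002101 to 72002850 and 102213001 to 102213750, and 18 sites had 600 bp, beginning at 6664051 to 6664650. Chromosome 2 had no site over 600 bp, and the first of its 5 sites of that width were at 50296351 to 50296950, 71611501 to 71612100 and 89842351 to 89842950.

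A3 KAP1 peaks, from a separate library that entered the rule through absence of overlap and not through width, were also wider on these chromosomes. On the 4 chromosomes 7.78% of 2531 A3 KAP1 peaks had the minimum width (6.77 to 8.90%), against 14.9% of 7579 on the other autosomes (14.1 to 15.7%), and the mean widths were 681 and 565 bp. The minimum-width share was 4.05% on chromosome 8 (2.64 to 5.92%), 6.46% on chromosome 1 (4.91 to 8.33%), 10.4% on chromosome 14 (7.61 to 13.8%) and 11.4% on chromosome 2 (9.04 to 14.04%). The 15 other autosomes ranged from 10.9 to 18.04%, so chromosomes 8, 1 and 14 were the 3 lowest of the 19, while 2 of the other autosomes lay below chromosome 2. In distal chromosome 14 the A3 KAP1 peaks had a median of 750 bp with 4.35% at the minimum (1.20 to 10.8%), against 600 bp and 12.2% in the proximal part (8.79 to 16.4%).

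In the E14 lists the width shares and the mean widths did not all point the same way. In E14 KAP1, 43.0% of the peaks on the 4 chromosomes had the minimum width (37.3 to 48.9%). On the other autosomes the share was 33.7% (30.7 to 36.8%). Peaks of at least 600 bp were 19.5% on the 4 chromosomes (15.1 to 24.5%) and 27.8% on the other autosomes (25.01 to 30.8%). Both shares differed in the opposite direction to A3 KAP1, where peaks of at least 600 bp were 69.9% and 51.02%. The E14 KAP1 means were 549 and 493 bp, the same direction as in A3 KAP1. These means include very wide peaks, up to 18900 bp on the 4 chromosomes and 11850 bp on the other autosomes. E14-only ZFP57 sites had the minimum width in 55.2% of 116 cases on the 4 chromosomes (45.7 to 64.4%) and in 58.1% of 291 on the other autosomes (52.2 to 63.8%), a difference within the counting error. Their share of at least 600 bp was 22.4% on the 4 chromosomes (15.2 to 31.1%) and 12.03% on the other autosomes (8.52 to 16.3%), and their mean widths were 562.5 and 429 bp. The means of the E14-only sites also include single very wide peaks, up to 16650 bp on the 4 chromosomes and 6300 bp on the other autosomes. In distal chromosome 14 all 6 E14-only sites had the minimum width. Each line had 1 library per protein, and the depth of the libraries is unknown, so the part of depth, line or library in these differences cannot be told apart.

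Spacing followed density. The median distance from one A3-only site to the next was 182 kb in distal chromosome 14 (131 to 236 kb), 552 kb on chromosome 8 (421 to 748 kb), 616 kb on chromosome 1 (482 to 770 kb) and 658 kb on chromosome 2 (528 to 809 kb), with exact order-statistic intervals. It was 1590 kb in proximal chromosome 14 over 25 gaps and 1428 kb on the other autosomes (1279 to 1599 kb). The widest gap in distal chromosome 14 was 2.63 Mb, while proximal chromosome 14 had one of 10.5 Mb, between the sites at 29676601 to 29676900 and 40132501 to 40132800. The SD of the gaps was 1.29 times their mean in distal chromosome 14, 1.33 on chromosome 8, 1.18 on chromosome 1 and 1.13 on chromosome 2. It was 1.05 times the mean in proximal chromosome 14 and 1.23 on the other autosomes. These values were not compared with those of randomly placed sites.

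Close neighbours were a small part. Of the 634 gaps on the 4 chromosomes 19 were within 10 kb (3.00%, 1.81 to 4.64%), against 6 of 700 on the other autosomes (0.857%, 0.315 to 1.86%). Short gaps are more frequent where sites are denser, and the mean gaps were 952 and 2423.5 kb. The part of density in this contrast was not tested. In distal chromosome 14, 35 of 127 gaps were within 100 kb (27.6%, 20.01 to 36.2%), among them the closest pair of that chromosome at 108051601 to 108052200 and 108052651 to 108053100, 450 bp apart. Runs of neighbours within 100 kb stayed short, with at most 4 sites on chromosomes 8 and 14 and 3 on chromosome 2. The first of the 5 runs of 4 on chromosome 14 spanned 119.6 kb from 91977751 to 92097300. Joining peaks within 300 bp removed 1 site on chromosome 1 and 1 on chromosome 2.

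**Figure D5:**
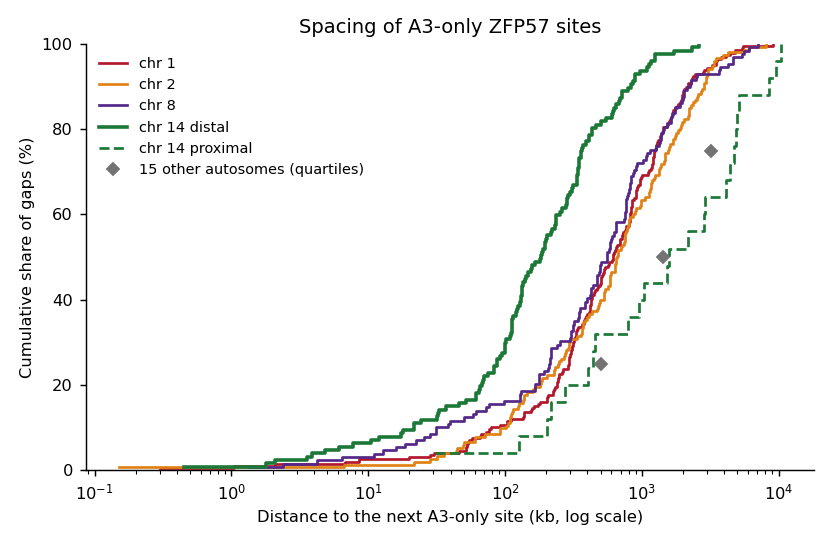
Cumulative share of distances between neighbouring A3-only ZFP57 sites (vertical axis) against distance in kb on a log scale, with 1 step line per chromosome or chromosome part; diamonds give the quartiles of the 15 other autosomes. The median lies at 182 kb in distal chromosome 14 and between 552 and 658 kb on chromosomes 1, 2 and 8, left of the 1428 kb of the other autosomes.

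The distance from the A3-only sites to the nearest peak of each other list is given as a description, since the rule had removed sites that met those peaks. On the 4 chromosomes the median distance to the nearest A3 KAP1 peak was 158 kb, and 29 of 638 sites had one within 10 kb (4.55%, 3.06 to 6.46%) and 239 within 100 kb (37.5%, 33.7 to 41.3%). On the other autosomes the median was 137 kb, with 54 of 715 within 10 kb (7.55%, 5.72 to 9.74%). Within 100 kb the share there was alike, 272 of 715 (38.0%, 34.5 to 41.7%). The nearest E14 ZFP57 peak was within 10 kb at 3 sites (0.470%, 0.0971 to 1.37%), against 5 on the other autosomes (0.699%, 0.227 to 1.62%). E14 KAP1 was within 10 kb at 8 sites (1.254%, 0.543 to 2.46%), against 17 (2.38%, 1.39 to 3.78%). Requiring that no other list had a peak within 10 kb left all 4 stretches in place, with 122 sites in distal chromosome 14.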

How the data were processed

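The deposited files are peak lists that the authors called, 1 per library, with 3 columns giving chromosome, start and end. Per the submitters' processing notes the build was mm9, and the tools named there are Bowtie 0.12.7, bedtools 2.14.3-1, CASAVA 1.8.2 and SAMtools 0.1.18. Which peak caller, threshold and input were used is not given in the sources used here. The lists carry no score or read count, so depth is unknown. Starts were reduced by 1, and overlapping or touching peaks were merged within a list, which took 53 peaks from the KAP1 list of A3, 3 from that of E14 and 1 from each ZFP57 list. Segments minimised a Poisson cost with a penalty of 2 times the natural log of the number of bins per change point. Shares have 95% Clopper-Pearson intervals. With 1 library per group no p-value was computed. The members, chromosomes and measures were chosen with earlier results of these data known. The named sites are the first, last and 3 widest of each chromosome, its closest pair, widest gap, fullest bin and stretch ends. The width classes, runs and A3 KAP1 widths were chosen after the values were seen. Joining and segmentation were tested on simulated data. Alternatives changed the distance to other lists, the width limit, bin size, penalty and enrichment limit. Python 3.11.15, numpy 2.4.6, scipy 1.17.1 and matplotlib 3.10.9 were used.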

Additional observations from a re-analysis of the deposited data

Results flagged for a closer look

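For peaks per Mb, the same contrast pointed in opposite directions in the 2 lines at the following places. The difference between the lines was not tested, no interval was computed for these ratios, and each line has 1 library per protein. Chromosomes 1, 2, 8 and 14 were chosen for a larger share of the A3 ZFP57 list than of the E14 ZFP57 list. The ZFP57 contrasts between the lines are therefore descriptions only. For ZFP57, chromosome 1 had 2.41 times the density of the other autosomes in A3 and 0.924 times in E14. Chromosome 14 had 3.03 times the density of the other autosomes in A3 and 0.798 times in E14. For KAP1, chromosome 1 had 1.04 times the density of the other autosomes in A3 and 0.801 times in E14. KAP1 on chromosome 8 had 1.13 times in A3 and 0.764 times in E14. KAP1 on chromosome 2 went the other way, with 0.877 times in A3 and 1.02 times in E14. The KAP1 ratios of 1.04 in A3 and 1.02 in E14 lie near 1, so their direction is uncertain.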

How the results depend on the processing

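Of 171 values recomputed under 16 settings, 147 stayed within the counting interval of the main value (counts within 1.5 times, stretch ends within 1 Mb). By this rule 6 stretches at the lower penalty counted as unchanged from 4. Many of the 147 values had little room to move: settings that left the segments as they were repeated the same stretch ends and the same shares of the other lists. The count of 147 is therefore no measure of robustness. Ends of stretches that were lost under a setting were not among the 171 values, as on chromosomes 1, 2 and 8 at 3 times the other autosomes. With A3 ZFP57 peaks of at least 450 bp alone, 364 sites remained on the 4 chromosomes, 60.4% of all A3-only sites, at a density ratio of 5.02 and a median spacing of 713 kb, the stretch on chromosome 1 ended at 194729850 and that on chromosome 2 began at 14963851. Leaving out chromosome 1, 2, 8 or 14 gave shares of 36.7, 39.1, 40.2 and 39.1%, by construction lower than 45.8%. With enrichment set at 3 times the other autosomes, 1 stretch remained, holding 20.1% of the sites, 3.63% of A3 KAP1, 5.48% of E14 ZFP57 and 6.48% of E14 KAP1 peaks of the 4 chromosomes, against 95.9%, 87.7%, 89.7% and 86.7% in the main setting. With the lower penalty the stretches held 85.9% of the sites, 60.5% of A3 KAP1, 64.4% of E14 ZFP57 and 68.3% of E14 KAP1 peaks, with chromosome 2 closing at 136447050 and chromosome 8 opening at 39128551. With bins of 2 Mb chromosome 2 closed at 151590450, and the stretches held 79.8% of A3 KAP1 and 80.5% of E14 KAP1 peaks. No paired analysis was possible because each group has 1 library and no test was made.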
